A study of Drosophila melanogaster with 2 samples.

Results

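The Wnt and Hedgehog pathway genes described here are 40 protein-coding genes chosen by symbol for their known roles, out of 13945 protein-coding genes on the 6 chromosome arms of the dm6 genome. They comprise 7 ligands, 5 genes for ligand processing and release, 9 receptors, 14 intracellular components and 5 heparan sulfate carriers. The class called carriers takes in the glypican genes dally and dlp, and also ttv, sotv and botv, the genes of enzymes that build the chains. All 40 were found in the annotation, 1 of them (Wls) under the spelling wls. The measurement was chromatin immunoprecipitation followed by sequencing (ChIP-seq) with an antibody against GFP, in whole Drosophila melanogaster embryos aged 8 to 24 h whose transgene makes the CG9932 protein as a fusion with eGFP. There was 1 group of 2 biological replicates, and both carried the transgene, so no comparison between conditions could be made and no control sample was analysed here. A whole embryo mixes its cell types, so a peak does not say in which cells the protein was found, nor in what share of them. The labels do not say whether the untagged protein was also present.

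Wnt and Hedgehog proteins are secreted, lipid-modified signals that pattern the segments of the fly embryo. In the Wnt pathway, binding of a ligand to Frizzled and Arrow stops a complex of Axin, APC and kinases from destroying Armadillo, the fly beta-catenin, which then acts with Legless and Pygopus in the nucleus. In the Hedgehog pathway, the ligand relieves the block of Smoothened by Patched, and a complex with Costal, Fused and Su(fu) then changes the processing of a transcription factor. Heparan sulfate chains, built by the EXT enzymes on glypican cores, help both kinds of ligand to spread and to reach their receptors.

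A gene was taken as bound at its promoter when the summit of a peak in the conservative set lay within 500 bp of any of its transcription start sites (TSS). The conservative set keeps peaks whose ranks in the replicates pass a limit on the irreproducible discovery rate (IDR). It held 6829 peaks, and 6790 of them lay on the arms. A second count took the summits between the start and the end of a gene. Each peak has a signal, the value of the authors' peak caller, which has no unit here. Its median over the conservative set was 160. The lists hold no read counts, so the depth is unknown, and signals are set side by side only to describe a peak, not to compare the libraries.

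The stretches around 4 strong promoter summits of members are shown because these peaks help to carry the result for the intracellular components and the heparan sulfate carriers. The stretch of fz, a Frizzled receptor, is added so that the receptor class is represented. It has the weakest of the 5 bound receptors' promoter peaks, and was taken because the others lie in annotated untranslated regions or, for ptc, on an arm from which no sequence is shown. Each is 201 bases long with the summit at base 101 and reads 5′ to 3′ on the strand of the gene, from the RefSeq copy of dm6. They lie at chrX:2646285-2646485 (sgg, plus strand), chr3L:14632375-14632575 (dlp, plus), chr3L:19045493-19045693 (nkd, minus), chr3R:24163711-24163911 (Apc2, plus) and chr3L:14274080-14274280 (fz, plus). Capitals mark matches, on either strand, to the motifs searched, which are spelled out further on.
sgg: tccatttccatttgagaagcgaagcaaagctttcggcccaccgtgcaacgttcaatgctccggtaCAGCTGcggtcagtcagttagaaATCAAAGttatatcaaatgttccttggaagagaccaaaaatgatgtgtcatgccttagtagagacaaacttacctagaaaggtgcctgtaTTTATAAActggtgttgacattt
dlp: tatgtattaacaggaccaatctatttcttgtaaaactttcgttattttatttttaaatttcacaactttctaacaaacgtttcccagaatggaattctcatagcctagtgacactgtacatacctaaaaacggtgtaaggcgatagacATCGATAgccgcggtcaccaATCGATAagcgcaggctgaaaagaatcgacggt
nkd: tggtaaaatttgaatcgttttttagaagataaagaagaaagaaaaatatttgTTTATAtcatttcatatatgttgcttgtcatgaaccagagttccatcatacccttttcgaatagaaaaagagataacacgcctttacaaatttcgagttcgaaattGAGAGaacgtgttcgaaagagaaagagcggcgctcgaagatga
Apc2: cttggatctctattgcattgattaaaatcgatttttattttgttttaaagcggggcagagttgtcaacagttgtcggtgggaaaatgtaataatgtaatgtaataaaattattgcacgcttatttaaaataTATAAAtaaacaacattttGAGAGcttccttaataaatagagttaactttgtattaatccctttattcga
fz: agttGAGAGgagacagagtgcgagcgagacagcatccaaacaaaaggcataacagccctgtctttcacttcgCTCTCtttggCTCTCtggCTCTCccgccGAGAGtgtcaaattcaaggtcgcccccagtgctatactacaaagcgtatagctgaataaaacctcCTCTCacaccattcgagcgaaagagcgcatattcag

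The stretches differ in what they hold. The sgg stretch held an E box starting at base 66, a Tcf sequence at base 89 and a pair of overlapping TATA matches at bases 179 and 181. In the dlp stretch the sequence ATCGATA stood at bases 149 and 169, downstream of the summit. Those of nkd and Apc2 each held 1 TATA match (bases 53 and 132) and 1 GAGA match (bases 159 and 151). The fz stretch was rich in GAGA matches, with 6 starting between bases 5 and 166. The GC content ran from 27.9% in Apc2 to 50.2% in fz.

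Of the 40 members, 21 (52.5%) were bound at a promoter, beside 4163 of all 13945 protein-coding genes (29.9%). In the own set of replicate 1, 18 members were bound (45.0%, against 30.1% of all genes), and in that of replicate 2, 14 (35%, against 23.9%). The members were chosen with earlier results of these data known, so no test was run on these shares. Members bound at the promoter had weaker peaks than bound genes in general. The median signal of their strongest promoter peak was 178, beside 264 for all 4163 bound genes, and 8 of the 21 stood above that value. Among the peaks with a signal above the median, 11 members kept a promoter summit (27.5%), beside 21.6% of all genes.

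Genes with several TSS or a great length offer more room for a summit, and the members were longer (median 9.26 kb) than all genes (median 2.17 kb). Among genes with 1 TSS, 13 of 29 members were bound (44.8%), beside 24.0% of all such genes. With 2 or 3 TSS it was 5 of 7 members beside 43.4%, and with 4 or more it was 3 of 4 beside 65.2%. By length, 5 of the 14 members under 5 kb were bound (35.7%), beside 26.3% of all genes of that length. Of those from 5 to 20 kb, 7 of 14 were bound (beside 41.3%), and of those of 20 kb or more, 9 of 12 (75.0%, beside 39.0%). The part of length in the overall share was not tested.

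The roles differed in their counts. Of the 7 ligand genes 1 was bound at its promoter (14.3%), of the 5 processing and release genes 1, of the 9 receptors 5 (55.6%), of the 14 intracellular components 10 (71.4%), and of the 5 heparan sulfate carriers 4 (80.0%). The same order from ligands to carriers held in the own set of replicate 1, with 1, 1, 4, 8 and 4 genes. In the own set of replicate 2 the counts were 0, 1, 2, 7 and 4. The classes hold 5 to 14 genes each and no test between them was run, so no difference between roles is called. The classes also differ in median length, at 13.7 kb for ligands, 3.01 kb for processing and release genes, 25.9 kb for receptors, 7.59 kb for intracellular components and 39.0 kb for carriers.

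**Figure D1:**
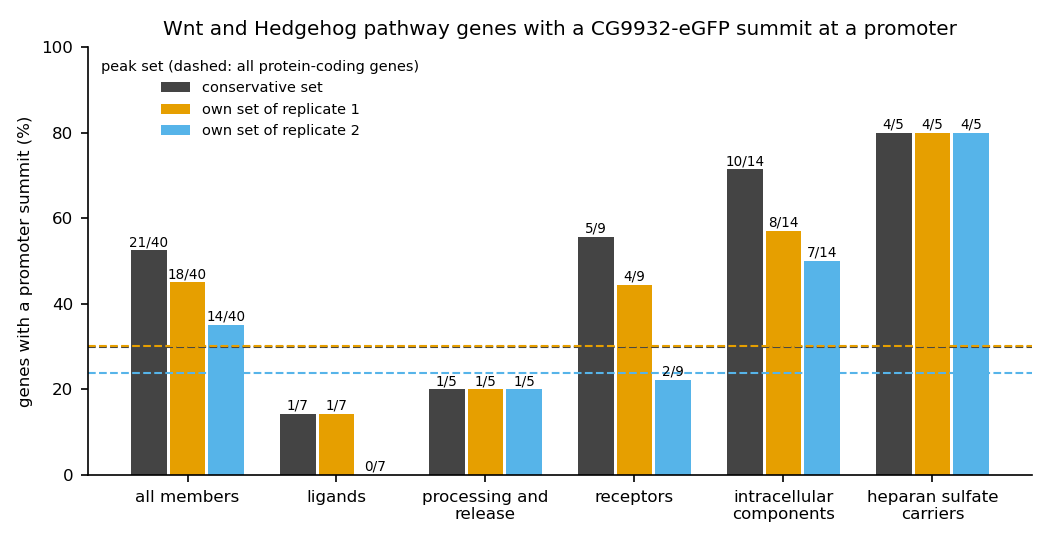
Percentage of genes (vertical axis) with a summit within 500 bp of a TSS, for all members and for each role, in the conservative set and in each replicate's own set; numbers over the bars are genes bound of genes in the class, and dashed lines give the share of all protein-coding genes in the set of that colour (29.9%, 30.1% and 23.9%). Ligands (1 of 7 in the conservative set) stand below the lines, and intracellular components (10 of 14) and heparan sulfate carriers (4 of 5) above them.

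Among the ligands, Wnt6 was the 1 gene bound at its promoter. It had summits at -404 bp (signal 140) and -195 bp (signal 97.4) from its TSS (negative is upstream). In the own set of replicate 1 the matching peaks had signals of 94.2 and 70.3, and that of replicate 2 had no summit within 500 bp. A further conservative summit stood at -683 bp (2L, 7333031; signal 172), with a peak of signal 96.6 in the own set of replicate 2 and none in that of replicate 1, so the own sets of the replicates differed in which place upstream of Wnt6 they held. The ranked list of replicate 2 did have peaks at both promoter places, with signals of 45.7 (score 693) and 35.7 (score 254), below its threshold.

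Wnt6 belongs to a group of 4 Wnt genes on 2L (7255419 to 7377528, 122 kb) with wg, the founding Wnt of flies, Wnt4 and Wnt10. The stretch held 7 conservative summits. The strongest (signal 401; 2L, 7281619) lay between genes, 4448 bp upstream of the TSS of Wnt4, with signals of 244 in replicate 1 and 169 in replicate 2. The next (signal 277) lay in an intron of Wnt4, 786 bp from the TSS of CG31909, a gene that sits inside Wnt4, and both replicates had it (173 and 109). For wg the nearest summits lay 5513 bp upstream of its TSS (signal 92.7) and 9371 bp downstream of it (signal 93.3), past the end of the gene, and neither replicate's own set had a peak there. Wnt10 had no summit in the gene and none nearest to its TSS.

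**Figure D2:**
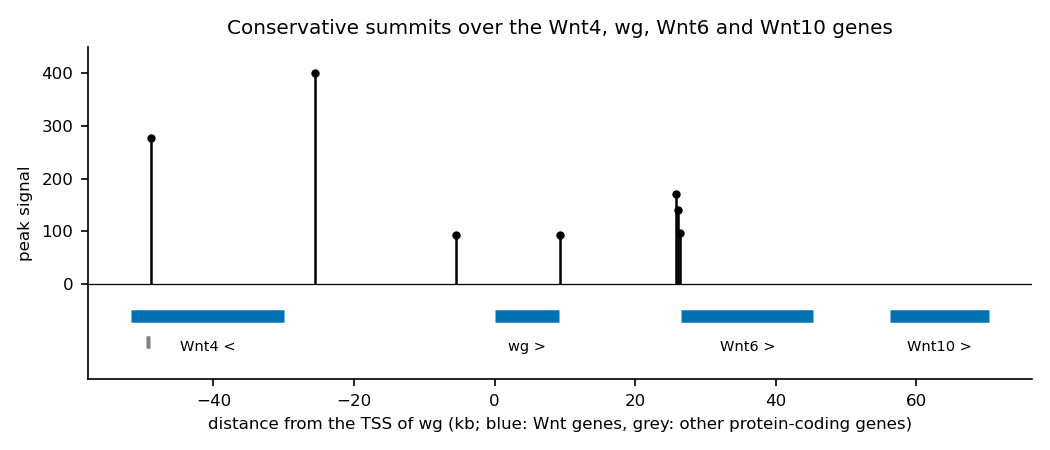
Peak signal (vertical axis) of the 7 conservative summits over the Wnt4, wg, Wnt6 and Wnt10 genes, by distance from the TSS of wg in kb (horizontal axis); bars below show the genes, with arrowheads for the direction of transcription. The 2 strongest summits (signals 401 and 277) lie near and in Wnt4, 3 stand just upstream of Wnt6, and none lies in wg or Wnt10.

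The other ligand genes had no conservative promoter summit. Wnt2 had 1 weak summit in a coding exon (signal 76.9), nearest to the TSS of its neighbour brp (1649 bp). Wnt5, whose product signals through Derailed receptors, had a summit 1909 bp upstream of its TSS (signal 238; 122 in replicate 1 and 114 in replicate 2), inside the gene Ggt-1. The best peak at the promoter of wg in the full ranked list behind the conservative set had an IDR score of 160, where the sets begin at 830, which stands for an IDR of 0.0100. At the promoter of hh, the Hedgehog ligand gene, that score was 92, and hh also had no summit in the gene. A missing summit says that no peak passed the authors' threshold, not that the protein was absent.

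Of the genes that process and release ligands, disp alone was bound at its promoter. Its product releases Hedgehog from the cells that make it. The disp peak (signal 106) was found in replicate 1 at 70.6 and in replicate 2 at 44.1, but its summit at -181 bp was nearer to the TSS of ECSIT (93 bp), the gene on its other side. Notum encodes an enzyme that removes the lipid from Wnt proteins. It had a pair of summits in an intron, at 3872 bp from its TSS (signal 150; replicates 88.0 and 69.7) and at 3082 bp (signal 103; replicates 51.7 and 50.3). The replicates' own summits lay 4 bp apart at the first and 131 bp apart at the second. At the second, the replicate 1 summit (3L, 16026353) lay outside the conservative peak (16026377 to 16026746). The replicate 1 ranked peak closest to the conservative summit had a signal of 48.5 and a score of only 48. The 51.7 thus belongs to an overlapping peak with a different summit, and replicate 1 did not closely repeat this place. The acyltransferase genes por (for Wnt) and rasp (for Hedgehog) and wls, the Wnt carrier gene, had no summit at the promoter or in the gene. The best ranked score at their promoters was 156 for por, 623 for rasp and 66 for wls. Of all 19 members without a promoter summit rasp had the highest such score.

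Of the receptors, ptc, smo, boi, fz2 and fz were bound at a promoter, none with a signal above 190. The peak of ptc, the Hedgehog receptor gene (2R, 8649204 to 8649573), had its summit at -260 bp, a signal of 190, and 139 and 67.5 in replicates 1 and 2. The gene also held weaker summits in coding exons, at 892 bp (120) and 14396 bp (87.5) from its TSS, each found in 1 replicate's own set. The summit at 14396 bp was nearer to the TSS of Acsl (1768 bp). The peak of smo, the gene of the signal transducer Smoothened (2L, 277143 to 277512), had a signal of 178 and 92.6 and 78.7 in the replicates. Its summit, at -254 bp, lay inside CG17078 and 116 bp from the TSS of that gene. For boi, a Hedgehog co-receptor gene, the promoter summit at -12 bp of an internal TSS (signal 133; 83.2 in replicate 1, none in replicate 2) lay inside the gene z, 52 bp from a TSS of z.

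The Frizzled receptor genes had weak promoter peaks. At fz2 the summit lay 93 bp downstream of an internal TSS (signal 113), and at fz 163 bp upstream (signal 75.1). Neither was in a replicate's own set. In the ranked lists of replicate 1 and replicate 2 the fz2 peak scored 673 and 610, and the fz peak scored 712 and 39. fz3, a Frizzled family member, and ihog, a Hedgehog co-receptor gene like boi, had no summit at the promoter or in the gene, and the best score at fz3 in the ranked list behind the conservative set was 593. In that list ihog had no peak at its promoter, while the ranked list of replicate 1 had one with a score of 513.

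Introns of long receptor genes held more of their summits than promoters did. fz (94.3 kb) had its strongest summit 61691 bp from its TSS (signal 403; 253 in replicate 1 and 158 in replicate 2), and further ones at 64739 bp (148) and 23300 bp (115). The TSS of CG13482 was nearer than that of fz to the summits at 61691 bp (6688 bp away) and 64739 bp (9736 bp away). arr, the gene of the Wnt co-receptor Arrow, had 5 summits in its introns, led by one 10634 bp from the TSS (2R, 13472595), whose signal was 438 (replicates 275 and 149). One of the 5 (signal 40.3) was a weaker summit 205 bp from that one. The nearest protein-coding TSS to all 5 was that of CG43192 and not of arr, 4747 bp away for the strongest and 348 bp for another (signal 71.9), so they may belong to that gene. Its promoter was bound in the own set of replicate 1 alone (signal 52.4), and its best promoter score in the ranked list behind the conservative set was 139. tkv, a type I receptor of BMP signals and so of neither pathway, had no promoter summit but 3 intronic ones between 10660 and 12452 bp from its nearest TSS, with signals of 198, 175 and 108. The TSS of TpnC25D was nearer to each of the 3, at 7534, 6656 and 8448 bp, so they may belong to that gene. Without tkv the share of members bound was 21 of 39 (53.8%).

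The strongest promoter peak of any member belonged to gish, the gene of a casein kinase of the gamma type that acts in Wnt signalling and elsewhere. It had a signal of 1393 (rank 121 of 6829), 791 in replicate 1 (rank 121) and 599 in replicate 2 (rank 127). The summit lay 158 bp upstream of an internal TSS. sgg, the gene of the kinase GSK3, followed with a signal of 980 (rank 277; X, 2646100 to 2646617), and 524 and 462 in the replicates. Its summit lay 252 bp upstream of 1 of its 11 TSS, and 3 more stood in introns with signals of 183, 154 and 96.6. nkd, whose product restrains Wnt signalling and which Wnt signalling itself turns on, had a signal of 683 (3L, 19045490 to 19045722), with 413 and 261 in the replicates.

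Of the genes of the destruction complex, Apc2, slmb, Axn and Apc were bound with moderate signals. The Apc2 peak had a signal of 298 with 179 and 109 in the replicates. The slmb peak had 285 with 145 and 144, Axn had 221 with 130 and 95.2, and Apc had 158 with 104 and 74.0. slmb encodes the F-box protein that marks Armadillo and the Hedgehog pathway's factor for breakdown. Each of these 4 summits stood between 2 close genes. The other TSS was that of mRpS24 for Apc2 (266 bp), CG5793 for slmb (43 bp), RpS28a for Axn (109 bp) and spg for Apc (428 bp). CG5793 was slightly nearer to its summit than slmb (45 bp).

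arm, dsh and fu had weaker peaks. At arm, the beta-catenin gene, the summit lay 28 bp upstream of a TSS with a signal of 129, and at dsh, the gene of Dishevelled, 40 bp upstream with a signal of 93.0. Neither replicate's own set held them. fu, a kinase gene of the Hedgehog pathway, had a signal of 120, found in replicate 1 at 70.8 and not in the own set of replicate 2. The remaining intracellular genes, pygo, cos, Su(fu) and lgs, had no summit at the promoter or in the gene. The best ranked score was 71 for pygo and 81 for cos, and no ranked peak lay at the promoters of Su(fu) and lgs. lgs is on chromosome 4, which held 1 conservative summit in all, so nothing is read from its lack of a peak.

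The heparan sulfate carriers had 4 of 5 genes bound, and both replicates' own sets held the peak of each. dlp, a glypican gene, had a signal of 726 (3L, 14632335 to 14632624) with 406 and 306 in the replicates, and its summit at -126 bp was 398 bp from the TSS of RecQ5. sotv and ttv encode the EXT enzymes that lengthen the chain. sotv had a signal of 567 (2R, 16148695 to 16148976) with 323 and 248, and ttv 380 (2R, 14526414 to 14526641) with 239 and 138. The sotv summit lay inside the neighbouring gene CG10731. dally, the other glypican gene, had its promoter summit 41 bp downstream of the TSS, with a signal of 126 and 60.3 and 68.6 in the replicates. botv, the third EXT gene, had no summit at its promoter or in the gene, and a best ranked score of 202.

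**Figure D3:**
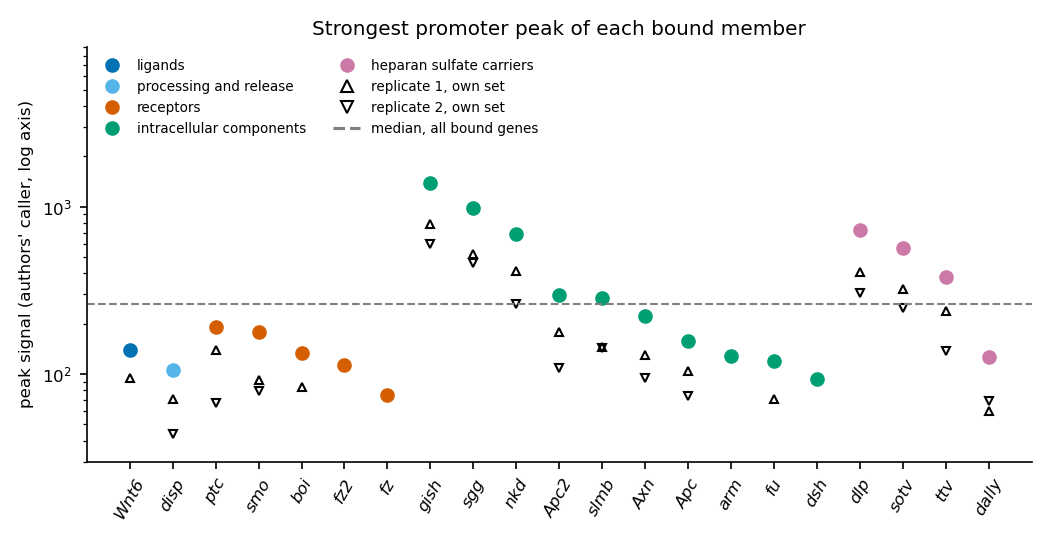
Signal of the strongest promoter peak of each of the 21 bound members (vertical log axis, authors' caller) in the conservative set (filled, coloured by role) and, where the peak is also there, in the own set of replicate 1 and replicate 2 (open triangles); the dashed line is the median over all bound genes (264). gish, sgg, nkd, Apc2 and slmb among the intracellular components and dlp, sotv and ttv among the carriers stand above the line, while every bound receptor stands below it.

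Of the 21 strongest promoter peaks, 14 overlapped a peak in both replicates' own sets, 3 in that of replicate 1 alone and 4 in neither. The 4 in neither were those of fz, fz2, arm and dsh. Where both replicates had the peak, their summits lay a median of 26 bp apart and at most 119 bp. Summits stood upstream of the TSS in 19 of the 21 genes, with a median position of -119 bp, and downstream in fz2 and dally. Over all bound genes 88.0% of the strongest promoter summits were upstream. Of the 21, 17 lay within 200 bp of the TSS.

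In 9 of the 21 (42.9%) another protein-coding gene also had a TSS within 500 bp of the summit, against 55% of all bound genes. These were disp, smo, boi, Axn, Apc, Apc2, fu, slmb and dlp, and a peak there may belong to either gene. For disp, smo and slmb the other gene was the nearer one. When a summit was given only to the nearest coding TSS, an alternative added once the data had been seen, 18 members were bound. The share of all genes was not counted under that rule, so the 18 cannot be set beside the 29.9% of the main count. The 12 genes with no such neighbour included the strong peaks of gish, sgg, nkd, sotv and ttv.

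**Figure D4:**
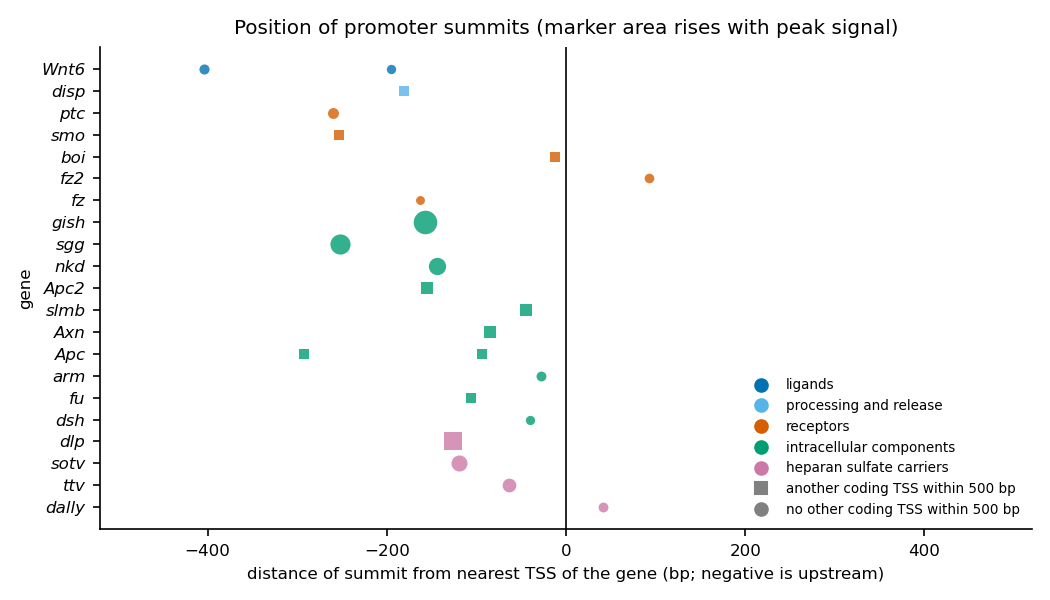
Distance in bp of each of the 23 promoter summits from the nearest TSS of its gene (horizontal axis, negative is upstream), 1 line per bound member; colour gives the role, squares mark summits with another protein-coding TSS within 500 bp, and marker area rises with signal. Most summits lie upstream and within 200 bp, and the strongest summit of Wnt6 lies farthest, at -404 bp.

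Counting the gene itself, 16 of the 40 members held at least 1 conservative summit between start and end, beside 16.4% of all protein-coding genes. None of the 14 members under 5 kb did (7.45% of all such genes), 4 of the 14 from 5 to 20 kb did (35.1%), and all 12 of 20 kb or more did (62.8%). Per 100 kb of gene length, members had 5.68 summits and all genes 4.27. The rate was 2.21 in ligands (2 summits) and 8.73 in processing and release genes (2 summits, both in Notum). It was 6.58 in receptors (22 summits), 5.76 in intracellular components (11) and 5.25 in carriers (9). Weaker summits beside a stronger one are included. By role, the members with a summit in the gene were 2 ligands, 1 processing and release gene, 6 receptors, 4 intracellular components and 3 carriers. The own sets of replicates 1 and 2 had 15 and 14 members with a summit in the gene.

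Over promoters and genes, 26 members had 62 summits, and 14 had none. Of the 62, 23 lay at promoters, 36 in introns and 3 in coding exons outside promoters. Both replicates' own sets had 38 of them, 1 set had 13 and neither had 11. A replicate peak that overlapped a pair of neighbouring summits was counted for each, so these numbers do not stand for separate replicate peaks. In 7 cases a weaker summit stood within 250 bp of a stronger one in an overlapping peak, for example in nkd with signals of 2.16 and 114, so 55 places carried the 62 summits.

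Beyond those named, long genes carried groups of intronic summits. nkd (41.7 kb) had 4 places in introns, with signals of 180, 149, 147 and 114 between 20391 and 28843 bp from its TSS. The first 3 of these were in both replicates' own sets. fz2 (94.4 kb) had intronic summits of 97.8, 85.4 and 80.2, none of them in both. boi had 2 intronic places, at signals of 128 and 108. dlp had summits 29418 bp (254) and 33557 bp (246) from its TSS, and dally 14455 bp (178) and 25632 bp (148). Both replicates had each of these 4. For several of the places in this paragraph another gene's TSS was nearer than the member's own. It was that of SmydA-2 for the first 3 nkd places, and of z for the boi place of signal 128. It was that of CG43121 for both dlp summits and of CG32026 for both dally summits. The ttv summits of 230 and 170 lay 720 bp and 398 bp from the TSS of LamC, the gene of a nuclear lamin, and may belong to it.

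**Figure D5:**
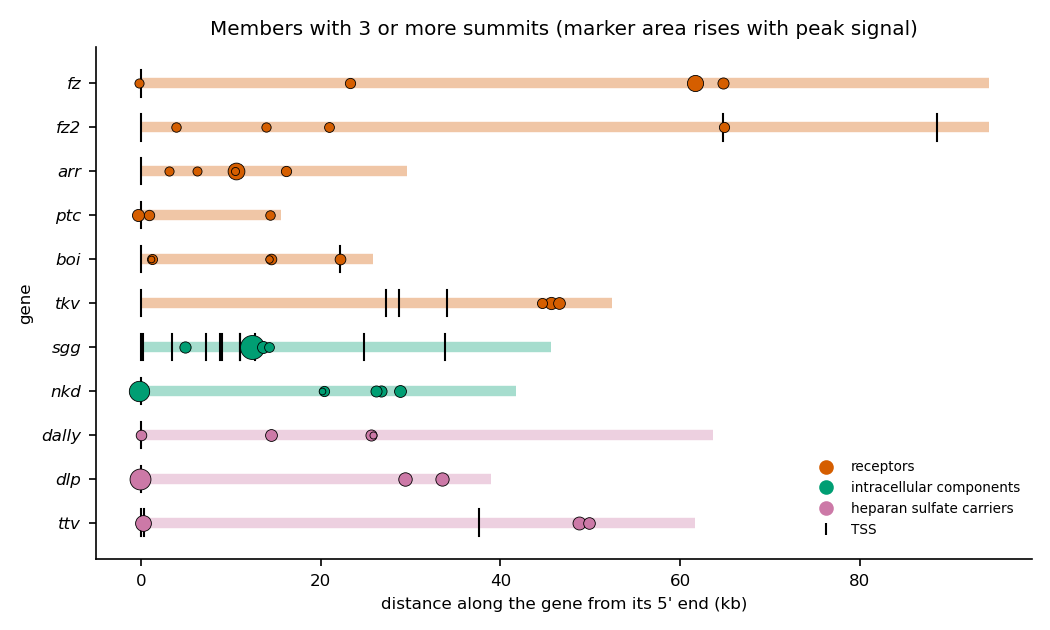
Summits (dots, area rising with signal) along the 11 members with 3 or more, by distance in kb from the 5' end of the gene (horizontal axis); pale bars show the gene and ticks its TSS, and colour gives the role. Strong summits of nkd, dlp and ttv lie at the gene start, and that of sgg at an internal TSS. Those of fz, arr and tkv lie in introns far from any TSS of their own gene.

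Motifs were searched within 100 bp of the summits, on both strands. They were the DNA replication-related element (DRE, TATCGATA), the core of Motif 1 (GGTCACAC), the GAGA sequence (GAGAG), a Tcf sequence (CTTTGAT), a Ci sequence (GGGTGGTC), the TATA box (TATAAA) and an E box (CAGCTG). DRE stood at 3 of the 23 promoter summits of members (13.0%, boi, slmb and smo), beside 10.3% of all 3467 promoter summits. The Motif 1 core stood at 3 (13.0%, dsh, slmb and smo) beside 5.83%. The summits of boi, slmb and smo also have another gene's TSS within 500 bp, so their matches may belong to either gene. GAGA stood at 7 (30.4%) beside 22.5%, the TATA box at 7 (30.4%) beside 30.8%, and the E box at 2 (8.70%) beside 13.2%.

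The sequences read by the pathways' own factors were rare at summits in general, and the members' matches are too few to read against those shares. The Tcf sequence, read by the factor that acts with Armadillo, stood at 1 promoter summit (4.35%, sgg) beside 2.80% of all. It stood at 1 of the 39 other summits of members (2.56%, in Notum), beside 3.19% of all summits away from coding TSS. The Ci sequence, read by the Hedgehog pathway's factor, stood at none of the 62. It stood at 0.375% of all promoter summits and 0.301% of those away from coding TSS. The shorter ATCGATA, which every DRE contains and which was added after the stretches were seen, stood at 5 member promoter summits (21.7%, boi, dlp, slmb, smo and sotv) beside 20.3%. Among the 39 other summits of members it stood at none, beside 1.72% of all summits with no coding TSS within 500 bp. The 2 sets are not quite alike, since some of the 39, in arr and ttv, lie within 500 bp of another gene's TSS. Median GC was 38.8% at member promoter summits and 38.3% at all promoter summits. A match is a description of the letters, not a site.

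Other genes of the pathways gave 23 of 51 bound at a promoter (45.1%), beside 29.9% of all protein-coding genes. In the own sets of replicates 1 and 2 it was 20 and 15 of the 51, beside 30.1% and 23.9% of all genes. The lists were written from background knowledge, but with earlier results of these data known, so they are no independent check on the members. Of 20 further Wnt components 11 were bound (55%), led by gro, the gene of a corepressor (signal 977; replicates 508 and 486), the casein kinase genes dco (714) and CkIalpha (639), and Tnks (343), whose product acts on Axin. The Tnks summit had a TSS of RASSF8 within 500 bp. Of 7 further Hedgehog components 4 were bound (57.1%), rdx (448), whose product targets the pathway's factor for breakdown, the kinase gene Pka-C1 (181), and the cullin genes Cul1 (132) and Cul3 (102). The own set of replicate 1 held all 4, but that of replicate 2 held only 1 of the 7, rdx, beside 23.9% of all genes. Of 12 genes of heparan sulfate synthesis or carriers 4 were bound (33.3%, near the share of all genes), the sulfotransferase genes Hs2st (1185), Hs3st-A (336) and Hs6st (103), and sgl (144). The summits of Hs2st, Hs6st, Pka-C1 and Cul1 had the TSS of RanGAP, MED25, hoip and CG12159 within 500 bp.

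Of 12 genes taken as embryonic targets 4 were bound (33.3%, near the 29.9% of all genes). They were Dll, a limb gene (376; 247 in replicate 1 and 128 in replicate 2), the Hox gene Ubx (107), en, the segment polarity gene that marks the cells making Hedgehog (90.2), and dpp, a BMP ligand gene (83.2). The peaks of Ubx and en were in the own set of replicate 2 alone, and that of dpp in neither. pan and ci, the genes of the factors at the end of the 2 pathways, had no promoter summit, and both lie on chromosome 4.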

How the data were processed

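ChIP-seq peak lists on dm6 were used, per the deposited file descriptions, from 2 biological replicates of 1 group. The authors deposited ranked lists and thresholded sets. Their values are an IDR score, a signal of the authors' caller and, in ranked lists, a deposited -log10 of the global IDR. The sources used here do not name the peak caller, its settings or the aligner. Replicates' own sets held 6036 and 4549 peaks. Another 26 value columns were not used.

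Genes came from Ensembl release 115 (BDGP6.54) and sequence from RefSeq Release 6. 99.8% of annotated start codons read ATG there, and no conservative peak passed the end of its arm. Summits are counted from 1. A conservative peak was matched to the overlapping replicate peak (at least 1 bp) with the closest summit. No test was run; the counting rules were tested on simulated peaks. Python 3.11.15 and matplotlib 3.10.9 were used.

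Members and lists were chosen with earlier results of these data known. All 40 members are accounted for. The signal of the strongest promoter peak is given for each bound member, and the values of other summits are given in part. Of the further genes, at most 4 per list are named by signal, beside pan, ci and sfl. Ulk3 was not matched. Sequences are those of the 5 strongest promoter summits outside 2R, plus 1 receptor; summits in annotated untranslated regions were passed over, a limit added later, and 1 of these stretches is not reported here. Tried as alternatives were a promoter reach of 200 or 1000 bp, each replicate's set, the optimal set, peaks above the median signal, peak centres, 1 TSS per gene, 2 kb upstream and stricter overlap.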

Additional observations from a re-analysis of the deposited data

How the results depend on the processing

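With promoters of 1000 bp, the optimal set or peak centres 21 members were bound, beside 33.5%, 31.4% and 29.9% of all genes. With 200 bp it was 18 beside 23.2%, and with the TSS of the gene record 17 beside 27.5%. Each replicate's own set gave 14 to 18 bound members (beside 23.9% to 30.1% of all genes) and 14 to 15 with a summit in the gene (beside 11.7% to 14.6%). By role these sets gave 0 to 1 ligands, 1 processing and release gene, 2 to 4 receptors, 7 to 8 intracellular components and 4 carriers. Among the peaks above the median signal 11 members were bound (beside 21.6% of all genes) and 10 had a summit in the gene (beside 9.09%), with 0 ligands, 0 processing and release genes, 2 receptors, 6 intracellular components and 3 carriers. With 2 kb upstream added, 29 members had a summit (72.5%), beside 5582 of the 13945 genes. Receptors fell to 3 with promoters of 200 bp and to 3 with the TSS of the gene record. With summits given to the nearest coding TSS, processing and release genes fell to 0. Members bound in the main count and in the 8 other promoter settings that add no neighbour or partner rule were 7: Axn, nkd, Apc2, slmb, dlp, ttv and sotv. An overlap of 50% of both peaks left 11 of 14 promoter peaks in both replicates' sets. The lower counts came from alternatives that by construction use fewer peaks, a narrower window, fewer TSS or 1 gene per summit, except that each replicate's own set is a separate call. No paired analysis was possible because there is 1 group. With 2 replicates no SD is given, and the unknown depth means a missing summit cannot be told apart from a shallow library.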

Other observations

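Summits outside promoters and genes whose nearest protein-coding TSS was that of a member numbered 6, at 5 members. Beside those near Wnt4, Wnt5, Wnt6 and wg, 1 lay 1694 bp upstream of fz (3L, 14272649) with a signal of 142, and with 93.5 in replicate 1 and 50.1 in replicate 2. That place was thus repeated in both replicates' own sets, while the weaker promoter peak of fz was in neither.

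sfl, a gene of heparan sulfate synthesis whose product adds sulfate to the chain, lacked a conservative promoter summit although both replicates' own sets had one, with signals of 154 and 81.7. It was singled out after its values were seen. Of the 19 members without a conservative promoter summit, 15 (78.9%) had a peak at the promoter in the full ranked list, with a median best score of 139, beside 61.6% and a median of 116 over the 9782 unbound protein-coding genes.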
